A study of Rattus norvegicus with 10 samples.

Results

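Spdef and 7 related transcription factor genes of the ETS family, Elf3, Elf5, Ehf, Ets1, Ets2, Elf1 and Elf2, were followed in the messenger RNA of rat milk whey through lactation. The members were all non-control probes of the array whose gene name in the deposited files is one of these 8 symbols, which gave 11 probes among 41012 and 8 gene names among 35469. Spdef was selected on its fall after d 2 in these same arrays, so its d 2 differences are described here without a test, and the question was whether the other 7 genes fell with it. Whey was prepared from milk of 3 F344/N dams on d 2 (colostrum), d 9 and d 16 postpartum, with 3 arrays per day, 1 for each dam. Serum was taken from the dams on d 21, and their RNA was combined into a single pool for 1 array without a replicate. All dams were untreated adults apart from an oxytocin injection and light anaesthesia before each milking. Whey is the clear part of milk, centrifuged to remove cells, fat and casein and then filtered, so these arrays measured RNA that is free or packaged in the fluid, and a lower signal from fewer contributing cells cannot be told apart from a lower signal per cell.

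ETS factors share a DNA-binding domain that recognises a short GGAA core, and they differ in the tissue that makes them and in the partners and kinases that regulate them. In the mammary gland Elf5 is known as a driver of the alveolar cells that make milk, acting downstream of prolactin. Spdef is known for the maturation of secretory epithelial cells such as goblet cells and for luminal cells of breast and prostate. Elf3 and Ehf belong with Elf5 to an epithelial branch, Ets1 and Ets2 respond to Ras and mitogen-activated kinase signals, and Elf1 and Elf2 are widely expressed and best studied in blood cells.

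Each transcript was read by 60-base probes, and the genes with several probes are the ones where a reader needs to tell these apart. The first 30 bases of the probes behind the main results, 5′ to 3′ as listed in the deposited files, are shown because every value below rests on these oligonucleotides.
Spdef: ctcctgtcactcgtcttgtaccatacctgg
Elf5: taagaccgccatcaaagattatgctgattc
Ehf: tatgtaccatgaagggacaaagaaaatata
Ets2 probe 1: atgttgcccaagtctcggctcaacaccgtc
Ets2 probe 2: gacatgggactaggaacatactcgagtcaa
Elf2 probe 1: gaatgtgaactgagtgatccaaaagcttca
Elf2 probe 2: ggtgtgactagagttgtgaacatcacttcc
Elf2 probe 3: aagactggacttctggatgtctactccatc

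Positions are those of the array design on rat build rn4, and exon or intron annotation of that build was not used here. The Spdef probe lies at chr20:5927918-5927977 on the minus strand. The Ehf probe at chr3:88520034-88520093 and the Elf5 probe, whose 60 bases are spread over chr3:88694989-88702063, are neighbours on the minus strand of chromosome 3. The Ets2 probes lie at chr11:36024918-36024977 (probe 1) and chr11:36030593-36030652 (probe 2), 5675 bases apart on the plus strand. The Elf2 probes lie on the minus strand at chr2:140144652-140144711 (probe 1), chr2:140146315-140146374 (probe 2) and chr2:140219101-140219160 (probe 3), the last 72786 bases from its neighbour and listed under a different transcript accession. Elf3 lies at chr13:48258870-48258899, Elf1 at chr15:60834677-60834736 and Ets1 at chr8:32545088-32545150. The range listed for Elf3 is shorter than its 60-base probe, so only part of that probe is placed.

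The 75th percentile of the processed signal was 12.5 to 28 on d 2 arrays, 21.2 to 83.2 on d 9 arrays, 21.5 to 40.6 on d 16 arrays and 4.1 on the serum array. Values below are log2 signals after quantile normalization, which sets all arrays to a common distribution. Each labelling started from the same mass of total RNA. The study reports a much higher RNA concentration in colostrum whey than in later whey. Signals are therefore shares of the RNA, and amounts per volume of milk were not measured by these arrays. A probe counted as detected in whey when it was well above the local background with a processed signal over 20 on at least 1 whey array. This left 16852 probes to be tested with limma. Of the 11 member probes, 10 passed, for 7 of the 8 genes, and Ets1 did not.

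Spdef was high in colostrum whey and low afterwards. Its log2 normalized signal in d 2 whey was 7.60 in dam 1, 7.45 in dam 2 and 7.69 in dam 3. On d 9 it was 3.62, 3.93 and 4.08 in the same order, and on d 16 it was 2.55, 4.16 and 3.39. All 3 d 2 values lay above all 6 later values, and the lowest, d 16 whey of dam 1, was not well above background.

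The Spdef mean went from 7.58 ± 0.12 (SD, n = 3) on d 2 to 3.88 ± 0.24 on d 9 and 3.37 ± 0.80 on d 16. The difference was -3.70 (SE 0.36) to d 9, a 13.0-fold lower signal, and -4.21 (SE 0.36) to d 16, an 18.5-fold lower signal. Every dam showed it, with -3.98, -3.52 and -3.61 by d 9 and -5.04, -3.29 and -4.30 by d 16. Among the 16852 probes, the Spdef fall had rank 23 by size at d 9 and rank 41 at d 16, where the median probe changed by 0.11 and 0.04.

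From d 9 to d 16 the Spdef signal did not differ beyond the spread between dams. The difference was -0.51 (SE 0.36, 95% interval -1.34 to 0.33, limma adjusted p = 0.485), it was negative in 2 of 3 dams, and the values of both days overlapped. The fall in Spdef signal lay mostly between d 2 and d 9.

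The size of the Spdef fall depended on how low signals were treated. With normexp background correction and an offset of 50, which compresses dim spots, the log2 difference was -1.59 to d 9 and -1.69 to d 16. With scaling to spike-in controls it was -2.39 to d 9, but the median of all probes then rose by 1.52, and relative to that median Spdef stood at -3.91. Slides held different days, and within slide 2, which carried d 2 whey of dam 3 and all d 9 whey, the log2 difference of the d 9 mean from the d 2 value was -3.81, while d 16 and its slide cannot be told apart.

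**Figure D1:**
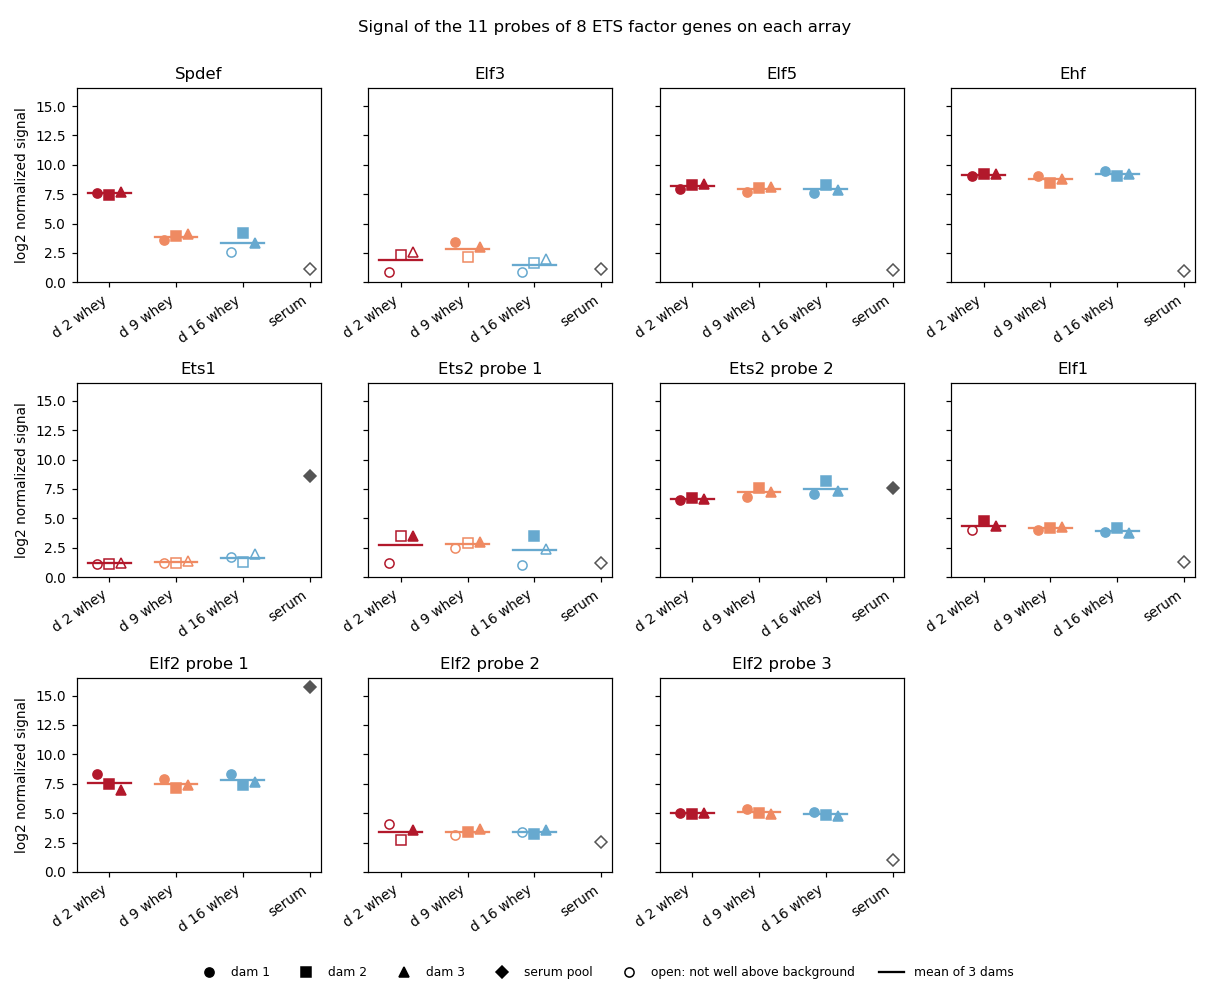
Log2 normalized signal (vertical axis) of the 11 probes of 8 ETS factor genes in d 2, d 9 and d 16 whey and in serum. Symbols are dams, lines are means of 3 dams, and open symbols were not well above background. Spdef drops from 7.58 to 3.88 while Elf5 and Ehf stay near 8 and 9, and Elf2 probe 1 reaches 15.72 in serum.

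None of the other ETS members tested was called as falling with Spdef. Ets1 was not tested, and Elf3 was not well above background on any d 2 array, so neither could show a fall. Of the 9 member probes other than Spdef that were tested, 0 were called by limma in any of the 3 comparisons of days, at an adjusted p under 0.05 over all probes. The share called among all probes was 17.6% for d 2 against d 9, 28.5% for d 2 against d 16 and 1.42% for d 9 against d 16. At an unadjusted limma p under 0.05 there were 0 of 9 for d 9 and 1 of 9 for d 16 (Ets2 probe 2, higher) against d 2, and 2 of 9 between d 9 and d 16 (Ehf higher, and Elf3 lower from near background). The Tukey-Kramer test named in the study's methods called 0 of 9 in each comparison after Benjamini-Hochberg adjustment, and 0 of 9 unadjusted. The 9 changes from d 2 ran from -0.39 to 0.90 by d 9 and from -0.45 to 0.89 by d 16, against -3.70 and -4.21 for Spdef. The values of 0.90 and -0.45 are those of Elf3, near background. Elf3, Ets2 probe 1 and Elf2 probe 2 passed the detection filter only through d 9 whey of dam 3 (processed signals 21.9, 23 and 39.8). They had to read high on that array, so their d 9 values cannot answer whether they fell from d 2. Without that array 6 member probes other than Spdef were tested, and 0 were called in any comparison.

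**Figure D2:**
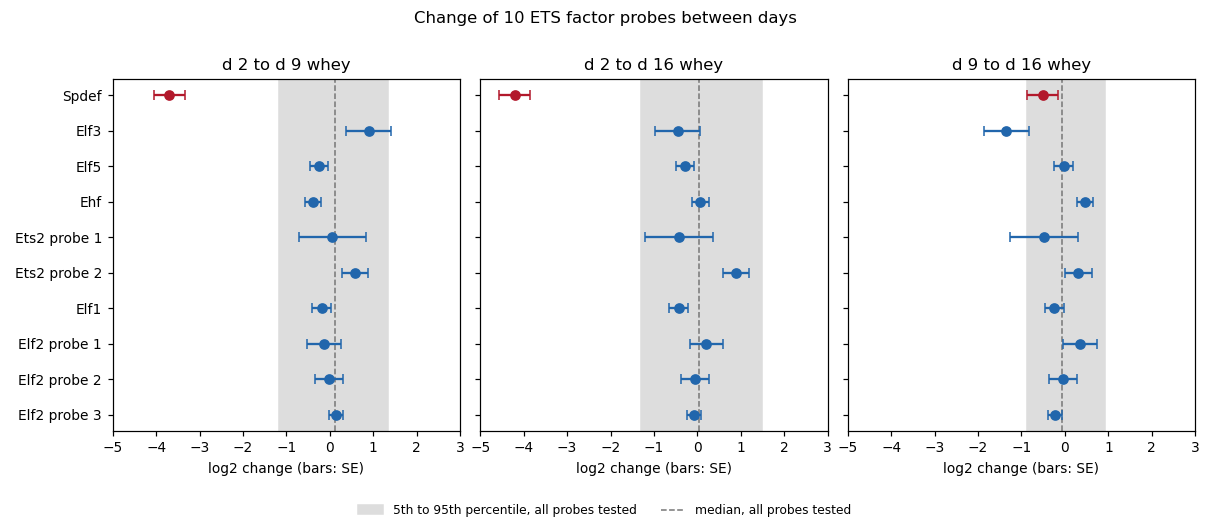
Log2 change of the 10 ETS factor probes tested, with SE bars, in the 3 comparisons of days. The grey band holds the 5th to 95th percentile of all 16852 probes and the dashed line their median. Spdef at -3.70 and -4.21 lies outside the band from d 2, and the other 9 probes lie within it in both d 2 comparisons.

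As a share of the RNA, Elf5 stayed close to its colostrum level. Its signal was 7.94, 8.30 and 8.34 in d 2 whey of dams 1 to 3. It was 7.69, 8.0 and 8.13 on d 9 and 7.61, 8.25 and 7.86 on d 16. The 3 days overlapped, and all 9 whey arrays were well above background.

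Against d 2, Elf5 differed by -0.25 on d 9 (SE 0.21, 95% interval -0.73 to 0.23, limma adjusted p = 0.422) and by -0.28 on d 16 (95% interval -0.77 to 0.20, adjusted p = 0.34). From d 9 to d 16 it differed by -0.03 (adjusted p = 0.95). Neither interval from d 2 reached a 2-fold fall. The small differences were negative in 3 of 3 dams in both comparisons with d 2.

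Ehf, the epithelial neighbour of Elf5 on chromosome 3, also stayed near its colostrum level. It read 9.07, 9.20 and 9.21 on d 2, then 9.05, 8.45 and 8.82 on d 9, and 9.49, 9.01 and 9.19 on d 16. The d 9 values all lay below the d 2 values, and the d 16 values spanned those of d 2.

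Against d 2, the Ehf difference was -0.39 on d 9 (SE 0.19, 95% interval -0.82 to 0.04, limma adjusted p = 0.183) and 0.07 on d 16 (95% interval -0.37 to 0.50, adjusted p = 0.815). From d 9 to d 16 it was 0.46, higher in 3 of 3 dams, which missed the threshold after adjustment (95% interval 0.02 to 0.89, adjusted p = 0.244). The Pearson correlation of Ehf and Elf5 over the 9 whey arrays, which share dams and days, was -0.22.

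Because Spdef, Elf5 and Ehf were read on the same arrays, their relative change does not depend on scaling between arrays. Its size does depend on the treatment of low signals. With normexp the log2 difference from d 2 to d 9 was -1.59 for Spdef, -0.17 for Elf5 and -0.31 for Ehf. On the unnormalized processed signal the Spdef to Elf5 ratio changed by -3.81, -3.42 and -3.69 on the log2 scale from d 2 to d 9 in dams 1 to 3. By d 16 it changed by -4.64, -3.35 and -3.94. The Spdef to Ehf ratio changed by -4.01, -2.98 and -3.54 from d 2 to d 9. With Spdef selected for its fall these ratios are a description, and the d 16 value of dam 1 rests on a Spdef signal that was not well above background (5.52 processed).

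Elf3, the remaining epithelial factor, was at the edge of detection. Its probe was well above background on 2 of 9 whey arrays, d 9 whey of dams 1 and 3, with signals of 3.40 and 2.97. On d 2 it read 0.89 to 2.58 and on d 16 0.88 to 1.95, not well above background on any of these arrays. It passed the detection filter through a single array, d 9 whey of dam 3 (processed signal 21.9), so d 9 had to read high and its differences from the other days are not interpreted.

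Ets2, an effector of Ras signalling, read higher on later days with the probe that was well above background on all 9 whey arrays. Ets2 probe 2 read 6.54, 6.70 and 6.66 on d 2, then 6.83, 7.58 and 7.23 on d 9, and 7.04, 8.18 and 7.34 on d 16. All later values lay above all d 2 values, and each dam was higher on d 16 than on d 9.

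The Ets2 probe 2 difference from d 2 to d 16 was 0.89 (SE 0.31, 95% interval 0.18 to 1.59), with a limma adjusted p of 0.0642, just outside the threshold. With the dam as a block the adjusted p was 0.027. Over the 20 alternatives run for this comparison the difference stayed positive, and its adjusted p ranged from 0.027 to 0.231, with 5 under 0.05. By d 9 the difference was 0.58 (adjusted p = 0.221). Ets2 probe 1 was well above background on 3 of 9 whey arrays and gave -0.42 from d 2 to d 16 with an SE of 0.78, so the probes of the gene could not be compared at this signal.

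Elf1 and Elf2, the widely expressed members, were low to moderate in whey, and the means of their probes differed little between days. Elf1 averaged 4.37 ± 0.40, 4.17 ± 0.13 and 3.94 ± 0.25 (SD, n = 3) on the 3 days, a difference of -0.43 from d 2 to d 16 (95% interval -0.94 to 0.08, limma adjusted p = 0.184). Elf2 probe 1 averaged 7.60, 7.47 and 7.81, probe 2 averaged 3.43, 3.42 and 3.37, and probe 3 averaged 4.98, 5.12 and 4.90 on the 3 days. Their 9 differences between days ran from -0.22 to 0.34, with limma adjusted p from 0.503 to 0.979. Probe 2 passed the detection filter only through d 9 whey of dam 3. The probes also differed within whey, where probe 1 correlated with probes 2 and 3 by 0.23 and 0.30. On d 2 the processed signal of probe 1 was 165, 163 and 153 in dams 1 to 3, against 16.4, 25.7 and 38.6 for probe 3. Probe 1 did not rise with probe 3 there, so its small differences between days are a limited reading of Elf2. Elf2 probe 3 had the smallest SE of the members tested (0.16), with intervals of -0.24 to 0.51 on d 9 and -0.46 to 0.29 on d 16 against d 2.

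The serum pool differed from whey in both directions. Ehf and Elf5 were not well above background in the serum pool (0.96 and 1.02) and were at least 62.2-fold and at least 30.2-fold higher in whey, whose means over 9 arrays were 9.05 ± 0.29 and 8.01 ± 0.26 (SD). These bounds rest on quantile normalization of a dim serum array, and the measured whey to serum differences of Ehf and Elf5, 8.09 and 6.99 on the log2 scale, were 5.88 and 4.8 with scaling to the 75th percentile and 3.08 and 2.36 with normexp. Spdef was not well above background in serum either (1.10). It was at least 22.5-fold higher in d 2 whey, at least 1.72-fold higher on d 9 and at least 1.21-fold higher on d 16, where the whey signal itself was low. Serum is 1 array of a pool, so none of these differences has a test.

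Ets1, known from lymphocytes and endothelium, showed the opposite picture. It was not well above background on any of the 9 whey arrays (1.12 to 2.01) and stood at 8.59 in serum, at least 107-fold higher. On the unnormalized scale that is a processed signal of 36.8 in serum against 2.03 to 4.77 in whey. The whey minus serum difference of Ets1 was -7.23 on the log2 scale after quantile normalization, -6.57 with 75th percentile scaling, -3.77 with spike-in scaling and -2.62 with normexp. Ets2 probe 2 had a serum signal of 19.9 and read 7.62 in serum and 6.54 to 8.18 in whey, and the sign of its difference from serum depended on the scaling, at -0.50 with quantile normalization, 0.33 with the 75th percentile and 3.13 with spike-in controls. Elf1 was not well above background in serum (1.25).

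The Elf2 probes disagreed in serum. Probe 1 read 15.72 in serum, from a processed signal of 11500 against 153 to 654 on the whey arrays, and lay 8.09 above the whey mean. Probes 2 and 3 were not well above background in serum (2.51 and 1.02), and probe 3 was at least 3.74-fold higher in whey. The probes thus give no single serum level for Elf2, and which transcript probe 1 reads was not tested. The summed level of 5 erythroid markers was 15.52 in serum against 3.63 to 5.16 in whey, and that of 21 leukocyte markers was 14.72 against 9.17 to 11.31, and their part in this signal was not tested.

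Of the 11 member probes, 5 (Spdef, Elf5, Ehf, Elf1 and Elf2 probe 3) had a measured whey mean more than 4-fold above a serum value that was not well above background, and 2 (Ets1 and Elf2 probe 1) had one more than 4-fold below serum. By the bounds only Elf5 and Ehf exceeded 4-fold, since Spdef over all 9 whey arrays, Elf1 and Elf2 probe 3 were at least 3.60-fold, 2.09-fold and 3.74-fold higher. Among the 21180 probes well above background on any array these shares were 27.2% and 15.7%. With scaling to the 75th percentile, or with normexp, Elf5 and Ehf alone stayed more than 4-fold above serum.

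The rest of the ETS family was looked at through a list of 19 further genes, 16 of them with a probe. Of these, 5 passed the detection filter in whey and were tested. By d 9, 1 of the 5 fell (Etv5) and 0 rose, and by d 16, 1 fell (Etv5) and 1 (Etv6) was called higher from a d 2 level near background. The median change of the 5 was -0.36 and -0.58, beside medians of 0.11 and 0.04 over all probes, and among all probes 6.36% fell and 11.3% rose by d 9, and 12.4% fell and 16.0% rose by d 16.

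Etv5, a PEA3-group factor known as a transcriptional target of growth factor signalling, was the only tested ETS gene outside the 8 members that was called lower after d 2. It read 7.19, 7.03 and 6.94 on d 2 in dams 1 to 3, then 4.89, 4.60 and 4.77 on d 9, and 4.82, 5.29 and 5.40 on d 16. All d 2 values lay above all later values. The difference was -2.30 (SE 0.18, limma adjusted p = 0.00083) to d 9 and -1.88 (SE 0.18, adjusted p = 0.000592) to d 16. It passed under 19 of 20 alternatives in each comparison, scaling to spike-in controls being the exception, with -0.92 (adjusted p = 0.233) to d 9 and -1.30 (adjusted p = 0.33) to d 16. A further Etv5 probe was well above background on 1 of 9 whey arrays and was not tested. Elk3 was well above background on 9 of 9 whey arrays but did not pass the signal filter and was not tested. That probe averaged 4.37 on d 2, 2.99 on d 9 and 3.34 on d 16, and the other Elk3 probe was well above background on 2 of 9.

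Etv6, a repressor of the family, averaged 2.82 on d 2, where it was not well above background in any dam, and 3.65 on d 16. It passed the detection filter only through later days, so its higher d 16 value is not read as a result, and it was called under 8 of 18 alternatives. Etv3 gave -1.63 from d 2 to d 9 (adjusted p = 0.0757) with its brighter probe and -0.16 (adjusted p = 0.635) with its other probe. Elk4 gave 1.22 (adjusted p = 0.114) and Gabpa -0.36 (adjusted p = 0.297). Erg and Fli1, factors of endothelial and blood cells, were well above background in serum (9.60 and 6.07) and not on any whey array, the same picture as Ets1.

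The members were left out when genes were ranked by likeness to the Spdef profile over the 9 whey arrays. None of the 5 highest is an ETS factor, though Etv5 also had a high d 2 and lower later days. Among 7665 named genes, the 5 highest Pearson correlations were with Khdrbs3 (r = 0.987), an RNA-binding splicing regulator, Dusp6 (r = 0.983), the phosphatase of ERK kinases, Tubb2b (r = 0.980), a tubulin, Gpi (r = 0.979), a glycolytic enzyme, and Chchd10 (r = 0.979), a mitochondrial protein. A correlation over 0.9 was shared by 245 genes, which have in common a high d 2 and lower later days. Among the members the correlation with Spdef was 0.645 for Elf5, 0.591 for Elf1, 0.096 for Ehf and -0.585 for Ets2 probe 2. These are descriptions over 9 arrays from 3 dams.

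Of these genes Dusp6 had the largest difference, from 9.76 ± 0.10 (SD, n = 3) on d 2 to 7.22 ± 0.12 on d 9 and 7.14 ± 0.40 on d 16. The difference was -2.54 to d 9 and -2.62 to d 16. The d 9 difference from d 2 was -1.09 for Khdrbs3, -1.13 for Tubb2b, -1.08 for Gpi and -0.46 for Chchd10 on the log2 scale. These genes were chosen for their likeness to Spdef on the same arrays, so the differences are a description and no test is given. They were smaller than that of Spdef, since the correlation measures shape and not size. Scaling to spike-in controls gave positive values from d 2 to d 9 for Khdrbs3, Tubb2b, Gpi and Chchd10, with the median of all probes at 1.52.

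**Figure D3:**
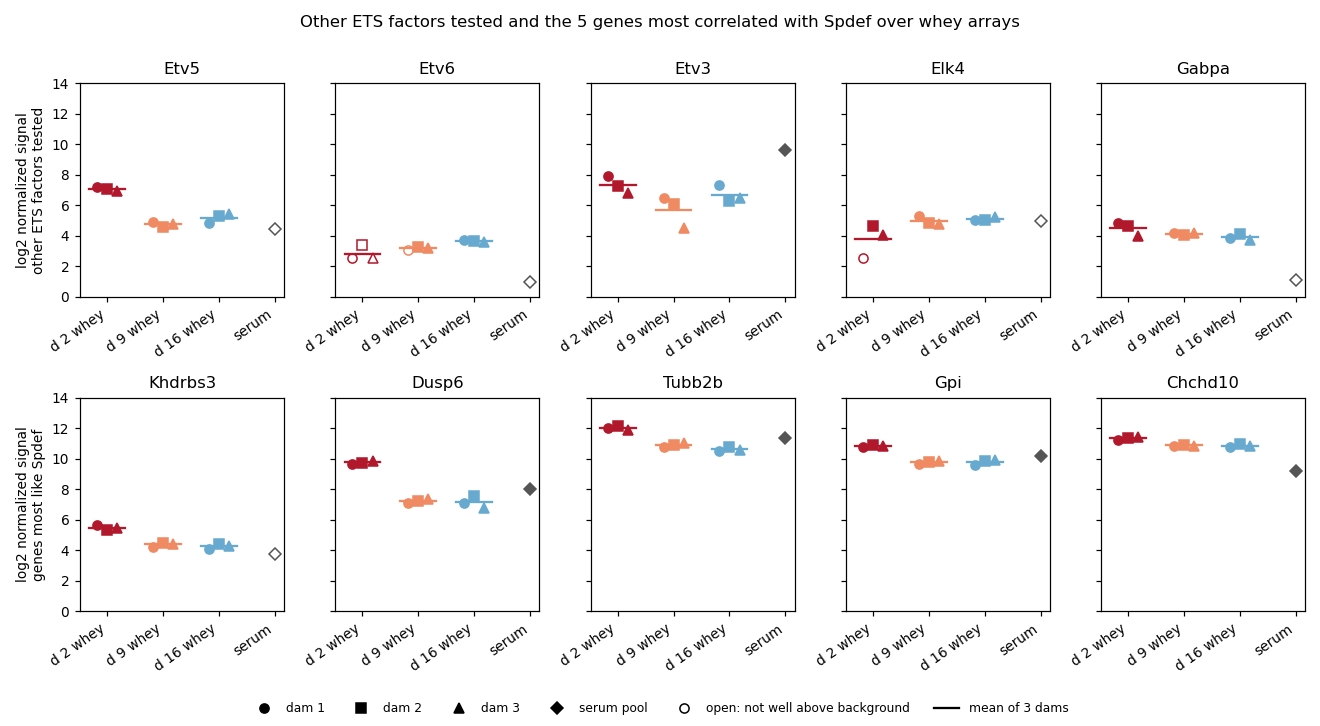
Log2 normalized signal of the 5 other ETS factors tested (top) and of the 5 genes most correlated with Spdef over the 9 whey arrays (bottom), by day and in serum. Symbols are dams, lines are means of 3 dams, and open symbols were not well above background. Etv5 falls from 7.05 on d 2 to 4.75 on d 9, and Dusp6 from 9.76 to 7.22.

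Partners of Spdef in secretory cells were mostly not detectable in whey. Of 24 listed genes of the secretory cell programme 18 had a probe and 3 were tested. Of these 3, limma called 0 in any comparison of days. The share called among all probes was 17.6% by d 9, 28.5% by d 16 and 1.42% between the later days. With only 3 genes, 0 calls cannot tell whether the programme changed less than other probes. Agr2, Foxa1, Foxa2, Foxa3, Tff1, Tff3, Muc2 and Muc5ac were not well above background on any whey array. Creb3l1, a secretory pathway factor, averaged 11.16 on d 2 and 9.28 on d 9, a difference of -1.89 (limma adjusted p = 0.0669). It read 13.28 in the serum pool, above all whey arrays. Within d 2 it read 11.83, 11.23 and 10.43 on arrays with a 75th percentile of 12.5, 20.2 and 28. Within d 9 it read 10.18, 9.54 and 8.11 at 21.2, 41.8 and 83.2. It was thus lower on brighter arrays, and the part of this in its d 9 difference was not tested. Clca1, a goblet cell product, averaged 3.95 on d 2 and 1.58 on d 16, a difference of -2.37 (adjusted p = 0.0544), and was well above background on 1 of 3 d 16 arrays. The median change of the 3 genes was -0.72 to d 9 and -0.89 to d 16.

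Regulators of mammary luminal cells gave a mixed picture around Spdef and Elf5. Of 30 genes with a probe 22 were tested. By d 9, 4 rose (Esr1, Notch3, Cish, Akt1) and 1 fell (Tfap2c), and by d 16, 4 rose (Esr1, Notch3, Cish, Jak2) and 4 fell (Stat5a, Stat5b, Tfap2c, Grhl3). These are 5 of 22 and 8 of 22, beside 17.6% and 28.5% of all probes called, and the median change was 0 and 0.01. Several calls depended on the processing: by d 9 Esr1 passed under 7 of 18 alternatives, Tfap2c under 8 of 20 and Akt1 under 11 of 20, and by d 16 Notch3 and Jak2 each under 10 of 20 and Grhl3 under 9 of 18. Esr1 and Cish were not well above background on any d 2 array, and Grhl3 was so on 1 of 9 whey arrays, d 2 whey of dam 3. These genes passed the detection filter only through days where they read high, so their calls are not read as results. Tfap2c, a luminal transcription factor, differed by -1.73 on d 16 (SE 0.23, limma adjusted p = 0.00211) and passed under 19 of 20 alternatives. Stat5a, which carries the prolactin signal, differed by -0.86 (SE 0.24, limma adjusted p = 0.0337) and passed under 12 of 20. Gata3, Ovol2 and Sox10 differed by -0.15, -0.03 and 0.05 from d 2 to d 16, with limma adjusted p of 0.62, 0.941 and 0.88.

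Epithelial markers moved in part with Spdef. Of 12 tested, 6 fell and 0 rose by d 9 (Krt8, Krt18, Krt19, Cldn3, Cldn7, Muc1), with a median change of -0.58, and 7 fell and 1 rose (Cldn4) by d 16, with the same median. Among all probes 6.36% fell and 11.3% rose by d 9, and 12.4% fell and 16.0% rose by d 16. By d 9 Muc1 passed under 6 of 20 alternatives and Cldn3 under 11 of 20, and by d 16 Esrp1 under 7 of 20 and Cldn4 under 10 of 20. Krt19, a luminal keratin, differed by -2.75 on d 9 (SE 0.33, limma adjusted p = 0.00353), and Krt8 by -1.31 (adjusted p = 0.00727). Epcam, Cdh1, Esrp2 and Cd24 did not pass the test in either comparison. The summed level of the list was 15.33 to 15.87 on d 2, 15.31 to 15.75 on d 9 and 15.30 to 15.47 on d 16, most of it Cd24, and all 12 markers were well above background on at least 1 array of each day. Under scaling to spike-in controls Krt8, Krt18, Cldn3, Cldn7 and Muc1 had positive values from d 2 to d 9.

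Most of the leukocyte markers that were called moved the opposite way. Of 12 tested, 6 rose and 1 fell (Cd14) by d 9, and 8 rose and 1 fell by d 16, with median changes of 1.47 and 2.61. Among all probes 11.3% rose and 6.36% fell by d 9, and 16.0% rose and 12.4% fell by d 16. Of the markers called, Cd68 and Lyz2 were not well above background on any d 2 array, so their rises are not read as results. The same held for S100a9, which was tested and not called. These genes passed the detection filter only through later days, and the medians above include them, which pushes the medians upward. The counts of rises include Cd68 and Lyz2. The d 9 call of Cd14 passed under 11 of 20 alternatives. C1qb, a macrophage complement gene, was 3.69 higher on d 16 (limma adjusted p = 0.00104). Lcp1 differed by -0.47 on d 9 and -0.40 on d 16 and was not called. Mpo did not pass the signal filter and was not tested, and it averaged 4.25 on d 2, 2.07 on d 9 and 1.40 on d 16. Ptprc, the defining leukocyte marker, was not well above background on any whey array. The part of these marker changes in the levels of Spdef, Etv5 or Ets2 was not tested.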

How the data were processed

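The members and gene lists were chosen with earlier results of these data known. Whole rat genome 1-colour arrays held cyanine 3 cRNA of 9 whey samples and 1 serum pool. The authors scanned the arrays and deposited spot intensity values from Feature Extraction 9.5.3.1: the processed signal is background subtracted and not normalized between arrays, and the deposited flags (well above background, outlier) are other values of that program. A deposited quantile table was not used, since the names of its 10 columns match no sample. Here log2 processed signals were quantile normalized over 10 arrays without control spots, the normalization named in the study's methods. Outlier spots were dropped (93 to 121 per array), spots averaged per probe, and saturated spots numbered 0. Days were compared with limma 3.58.1 in R 4.3.3 (lmFit, eBayes, two-sided, prior degrees of freedom 1.83), Benjamini-Hochberg adjusted over 16852 probes at 0.05, with all 9 whey arrays sharing the spread. The number of arrays limits the precision. The script was tested on simulated data.

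Groups and dam numbers came from the sample titles. Dam numbers mark the same animals on each day, so they pair the arrays, and same-dam deviations correlated by -0.02 to 0.22. The main model had no dam block, as in the study's methods. Where no array of a group had the probe well above background, the fold is a bound against the higher of its own value and the lowest probe well above background, per array. Serum entered no test, and differences past 4-fold were counted. Named were all member probes, the 5 genes most correlated with Spdef, and from each list the called genes and up to 4 more, with further values chosen after they were seen. Each list gene was read by its probe well above background on most whey arrays. Lists were other ETS factors, the secretory cell programme, mammary luminal regulators, milk protein genes, and epithelial, myoepithelial, leukocyte, erythroid, and endothelial and stromal markers. Of 20503 probes with a RefSeq accession, 82.0% matched a GRCr8 gene table, which was used for names alone. Alternatives changed the scaling, background correction, filter, outlier spots, blocks for dam and slide, spread and test, and left out each whey array.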

Additional observations from a re-analysis of the deposited data

How the results depend on the processing

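Quantile normalization without the serum array, 75th percentile scaling, normexp, no filter on dim probes, kept outlier spots and the Tukey-Kramer test left the number of called probes among the members other than Spdef at 0 in all 3 comparisons. From d 2 to d 9 scaling to spike-in controls called 2 (Elf3 and Ets2 probe 2, both higher), with the median of all probes at 1.52. From d 2 to d 16 a minimum signal of 100, the dam as a replicate block, the slide as a random block (added after seeing the data) and limma-trend with robust spread each called 1, Ets2 probe 2, and leaving out single whey arrays gave 0 to 1, with the 1 coming without d 16 whey of dam 1. Blocking by dam changed no other call among the members. The slide as a fixed block could be fitted from d 2 to d 9 alone. The Spdef change stayed negative in all 20 alternatives of each d 2 comparison, from -3.82 to -1.59 to d 9 and from -4.61 to -1.69 to d 16.

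Member probes past 4-fold between whey and serum numbered 7, but 4 with 75th percentile scaling, 4 with normexp and 10 with spike-in scaling (8 higher in whey, 2 lower). Normalizing whey arrays alone gave no whey to serum value. Elf5 was 0.25 lower on d 9 in the main analysis and 1.25 higher with spike-in scaling, which is -0.27 relative to the median. Among genes of the other lists and those most like Spdef, that scaling turned the sign from d 2 to d 9 for Tfap2c (0.60), Krt8 (0.18), Krt18 (0.64), Cldn3 (0.09), Cldn7 (0.23), Muc1 (0.77), Khdrbs3 (0.32), Tubb2b (0.34), Gpi (0.37) and Chchd10 (0.98), and from d 2 to d 16 for Esrp1 (0.17) and Chchd10 (0.03), none past the threshold. The cause was not tested. Over all probes 2969 were called from d 2 to d 9, against 6935 with spike-in scaling, 1297 with Tukey-Kramer and 498 with the slide as a fixed block. From d 2 to d 16 4801 were called, against 781 with spike-in scaling and 2683 with Tukey-Kramer. From d 9 to d 16 239 were called, against 855 with normexp, 686 with limma-trend, 131 without a filter, 117 with the dam as a block, 155 with spike-in scaling and 0 with Tukey-Kramer. Leaving out single whey arrays gave 1274 to 2704 calls from d 2 to d 9 (lowest without d 9 whey of dam 2, and 1552 without d 2 whey of dam 2), 2740 to 4964 from d 2 to d 16 (lowest without d 16 whey of dam 3, and 3099 without that of dam 2), and 23 to 260 from d 9 to d 16 (lowest without d 16 whey of dam 3). The last count moved by over 1.5 times without any array except d 2 whey of dams 1 and 3. Low signals of Elf3, Ets2 probe 1 and Elf2 probe 2 near background limit what could be seen of them.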

Other observations

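Milk protein genes, the products of the cells in which Elf5 acts, were read on the same arrays. Of 10 tested, 1 rose from d 2 to d 9 (Csn1s2b), 6 rose from d 2 to d 16 (Csn1s2b, Csn2, Csn3, Wap, Lalba, Btn1a1) and 0 fell, with limma adjusted p under 0.05, beside 16.0% of all probes that rose and 12.4% that fell by d 16. These are changes in the share of an equal mass of RNA. The study's quantitative PCR, run on equal volumes of whey, gave Csn3 and Lalba higher in colostrum than in mature milk whey. By that measure Csn2 and Wap did not change, and Csn1s2b was higher on d 16 than in colostrum. Csn3 (adjusted p = 0.0498) passed under 6 of 20 alternatives and Btn1a1 under 12 of 20, and with 75th percentile scaling the limma adjusted p was 0.182 for Csn3 and 0.343 for Wap. Quantile normalization gives spots of equal rank equal values. Wap had an SD of 0 on d 2 and on d 16, so these SDs do not measure the spread between dams. Csn1s2b, a casein, averaged 9.40 on d 2, 13.52 on d 9 and 15.93 on d 16, a difference of 6.53 from d 2 to d 16 (SE 0.20, limma adjusted p = 2.3e-05). Csn1s1 and Xdh differed by 0.11 and 0.22 from d 2 to d 16 and did not pass. The median change of the 10 was 0.29 to d 9 and 0.68 to d 16. Of 6 myoepithelial and 5 endothelial and stromal genes tested, 0 were called in any comparison by limma. Their median changes to d 16 were 1.05 and 0.71. Among all probes the share called was 17.6% by d 9, 28.5% by d 16 and 1.42% between the later days. With so few genes, 0 calls do not show that these lists stayed level. No erythroid marker was tested in whey.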
